A study of Mus musculus with 21 samples.

Results

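The 10 genes described here encode transporters through which the small-intestinal epithelium takes up amino acids, peptides and sugars: Slc6a19, Slc6a20a, Slc7a9, Slc3a1, Slc7a7, Slc1a1, Slc15a1, Slc5a1, Slc2a5 and Slc2a2. Their probes were taken from the array annotation by gene symbol, without use of a measured value. The list of genes itself was chosen with earlier results of these data known. The genes are 10 of the 21372 tested. Each gene had 1 probe, and that of Slc1a1 was printed on 10 spots of every array. All 10 probes were well above background in the sample channel on 21 of 21 arrays.

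Absorptive enterocytes of the villus carry these proteins on opposite faces of the cell. Carriers of the brush border, many of them driven by sodium or proton gradients, bring nutrients in from the lumen, and carriers of the basolateral membrane pass them on to the blood. Transcripts of many such carriers are low in crypt stem and progenitor cells and accumulate as cells leave the crypt, where Wnt signalling through beta-catenin is strongest.

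The organoids were grown from small-intestinal crypts of mice with a tetracycline-responsive transgene for N-terminally truncated, myc-tagged human beta-catenin, switched on by doxycycline through M2-rtTA expressed from the ROSA26 promoter. All groups carried the transgene and were first grown with doxycycline. Doxycycline was removed for 24 h in 4 withdrawn samples (letters D to G). Compound 6 (4 samples, letters D to G), compound 2 (3 samples, letters A to C) and compound 9 (3 samples, letters A to C) were each given at 2 µM for 24 h with doxycycline still present. The 7 vehicle samples kept doxycycline for the same 24 h, 3 with letters A to C and 4 with letters D to G. The labels describe the compounds as near analogues in a substituted pyridine series that inhibit the Mediator-associated kinases CDK8 and CDK19. Each sample was hybridised to 1 two-colour array of sample RNA (Cy3) and Universal Mouse Reference RNA (Cy5), and levels below are log2 ratios of sample over reference. The comparisons ask how each treatment changed these transcripts relative to vehicle samples with the same letters. Whether arrays of a group came from separate cultures or animals is not stated in the labels, so the p-values measure only the spread between these samples, which may be technical.

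Some arrays stood apart. The array labelled vehicle F had a median level of the stem cell markers (Lgr5, Ascl2, Olfm4, Smoc2) of 0.58, where vehicles D, E and G ranged from 2.45 to 2.86. Its proliferation markers (Mki67, Top2a, Ccnb1, Mcm4) had a median of -4.40, where the other vehicles with letters D to G ranged from -2.12 to -1.97. Its stem marker level lay near the 0.31 to 0.47 of withdrawn samples. Vehicles A to C lay at 0.63 to 0.91 and -4.73 to -4.39 for the same lists. The arrays with letters A to C were scanned on another day than those with letters D to G, so that letter set and scan cannot be told apart, and results with letters D to G are given with and without letter F. All 7 epithelial and all 10 enterocyte markers were well above background on 21 arrays, while Pdgfra of fibroblasts and Cdh5 of endothelium were on 0. The other 4 fibroblast markers and the 4 leukocyte markers were detected on 21 arrays. Of the stem cell markers, Olfm4 was well above background on only 3 of 21 arrays and Lgr5 on 19.

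Promoter windows, the 250 bases before each RefSeq transcript start (build GRCm38.p6), were found for 10 of 10 members, 15 windows in all. They are shown for Slc3a1, the only member with a match to a motif named here, and for Slc1a1, whose response differed from the rest. The searches given here, on both strands, covered CAAAGTCCA (HNF4), TTTATG (CDX), ATCAAAG (TCF/LEF) and TGACNNNGC (antioxidant response element core), and capitals mark matches, which overlapped no other match. Results of 1 further motif are not reported here.
Slc3a1: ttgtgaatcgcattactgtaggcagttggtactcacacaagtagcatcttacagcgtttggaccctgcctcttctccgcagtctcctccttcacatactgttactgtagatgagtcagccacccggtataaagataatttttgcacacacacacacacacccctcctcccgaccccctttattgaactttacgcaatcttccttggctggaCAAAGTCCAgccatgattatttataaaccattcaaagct
Slc1a1: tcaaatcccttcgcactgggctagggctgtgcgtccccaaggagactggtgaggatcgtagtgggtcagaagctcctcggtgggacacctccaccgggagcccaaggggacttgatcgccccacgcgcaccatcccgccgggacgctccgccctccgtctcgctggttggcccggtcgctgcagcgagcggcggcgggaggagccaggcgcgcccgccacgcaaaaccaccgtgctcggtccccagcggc
CAAAGTCCA lay 39 to 31 bases before the start of Slc3a1 (chr17:85028097-85028346, plus strand). The Slc1a1 window (chr19:28834885-28835134, plus strand) held none of these letters and was 70.4% G and C, the highest of the 15 windows. Of 32851 promoter windows of the same length, 0.384% held CAAAGTCCA, 10.8% TTTATG, 3.21% ATCAAAG and 10.2% TGACNNNGC. A match describes the letters and is not a binding site.

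After withdrawal of doxycycline, transcripts of the neutral amino acid carriers Slc6a19 and Slc6a20a, the basolateral exchanger subunit Slc7a7 and the glucose transporter Slc2a2 rose, by 0.35 to 0.76 on the log2 scale. These were 4 of 10 members, with 0 lower (limma, adjusted p under 0.05), beside 20.7% of all genes called in either direction and 7.27% called higher. The median change was 0.25 over the members and -0.01 over all genes, and 9 of 10 estimates were above 0. With the letter as a block, 5 members passed as higher and 1, Slc1a1, as lower, beside 39.1% of all genes called. Without every array of letter F, 4 were higher and 1, Slc1a1, was lower, beside 31.9% of all genes. Values of 4 members did not overlap between withdrawn and vehicle samples, beside 16.8% of all genes. Without the term for the letter set, so that the vehicles of both scans were pooled, the calls of Slc6a19 (0.46), Slc6a20a (0.27) and Slc2a2 (0.25) were lost. In these bulk samples, fewer cells of a type and less RNA per cell cannot be told apart.

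Compound 6 raised Slc1a1, Slc6a20a and Slc7a7, 3 of 10 members with 0 lower, beside 24.8% of all genes called in either direction. The member median was 0.18, that of all genes -0.03, and 9 of 10 estimates were above 0. Slc2a2 also passed with the letter as a block, which made 4, beside 41.3% of all genes, and without every array of letter F, which made 4 beside 30.4%. Groups did not overlap for 2 members, beside 19.9% of all genes. Compound 2 raised Slc1a1 alone of the 10, beside 5.32% of all genes called, and 10 of 10 estimates were above 0 (median 0.19, all genes 0.00). The letter block added Slc2a2, beside 17.4% of all genes called, and groups did not overlap for 3 members, beside 26.0% of all genes. With compound 9, 0 of 10 members passed in limma, 0 at an unadjusted p under 0.05 and 0 with the letter as a block, beside 0% of all genes called without the block and 0.00468% with it. At an unadjusted p under 0.05, 1.17% of all genes passed. Values did not overlap for 0 members with compound 9, beside 5.18% of all genes, 9 of 10 estimates were below 0, and the median was -0.08 (all genes -0.01). Compound 6 and withdrawal share their 4 vehicle arrays, and compounds 2 and 9 share their 3.

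**Figure D1:**
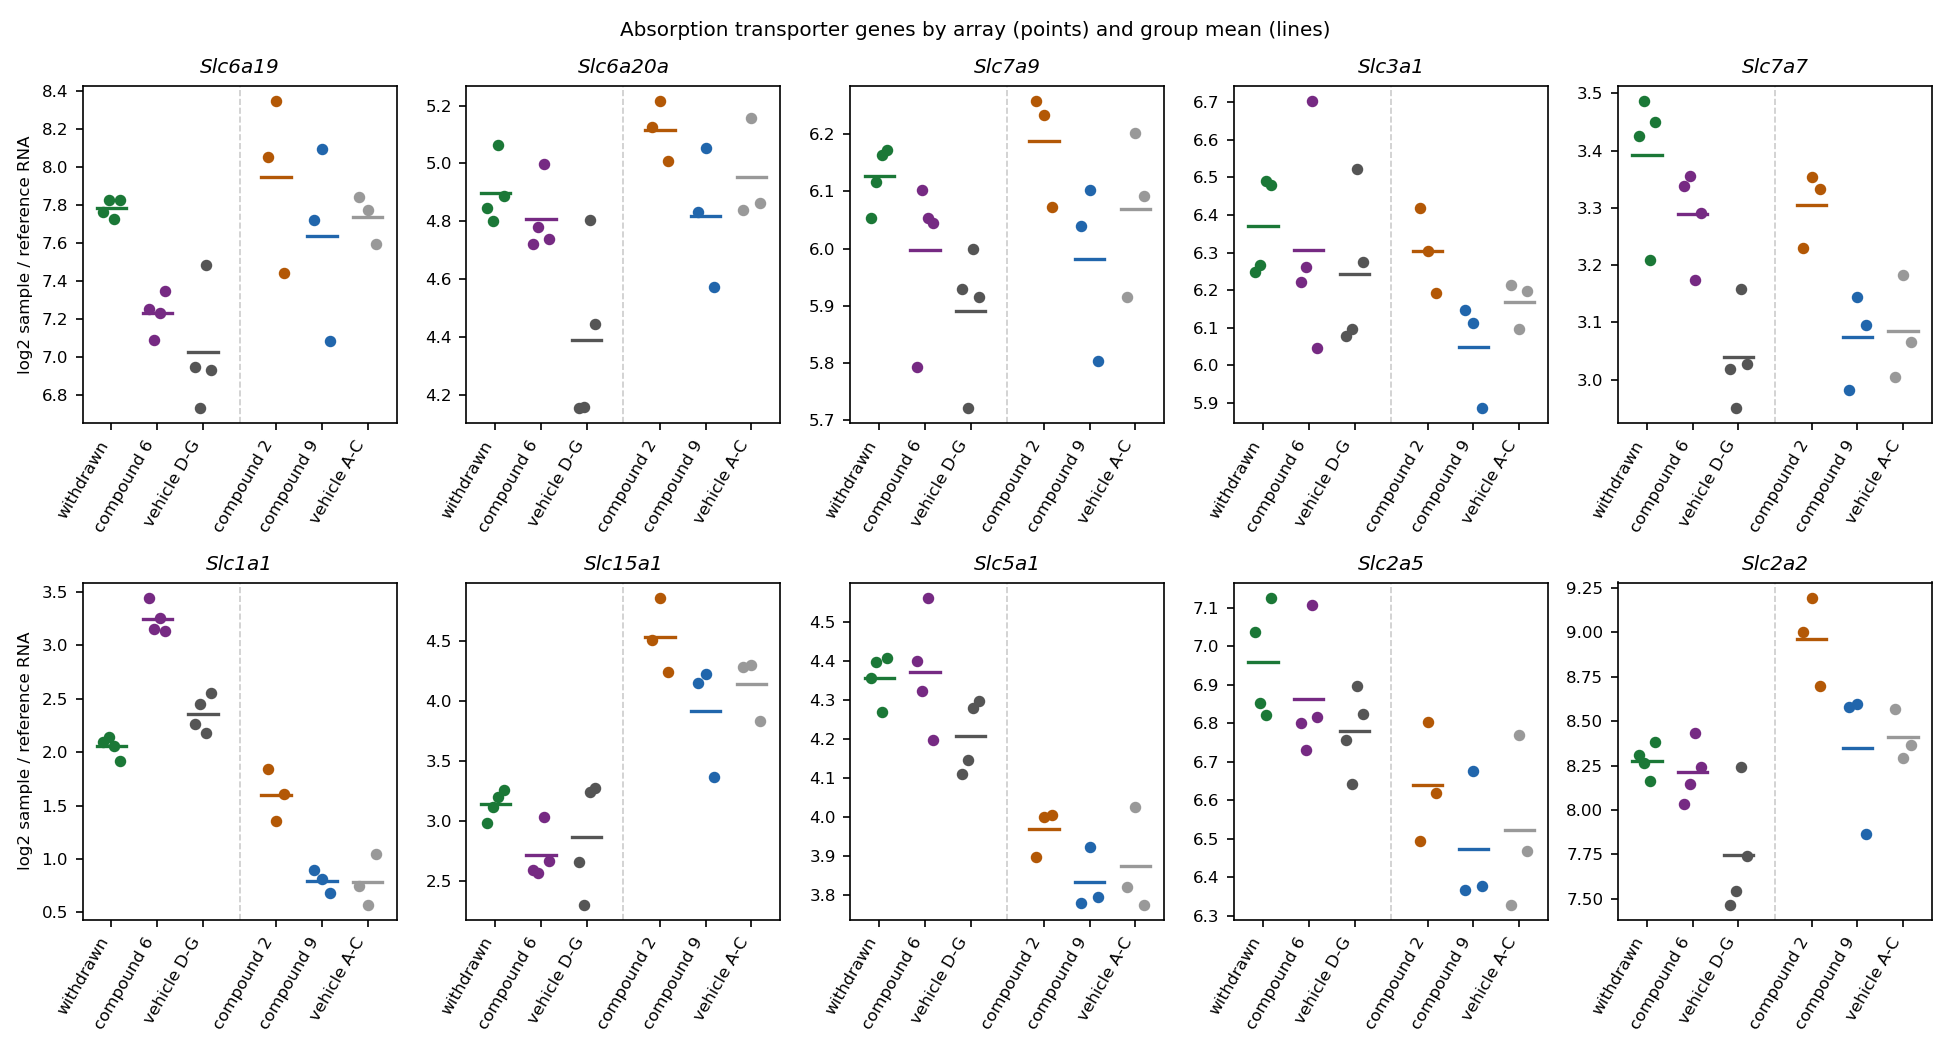
Log2 ratio of sample over reference RNA of each transporter gene (panels), with a point per array and a line at the group mean; letters D to G stand left of the dashed line and A to C right of it. The 4 withdrawn arrays lie above all 4 vehicle arrays for Slc6a19, Slc7a9 and Slc7a7, and compound 6 stands above vehicle and withdrawn arrays for Slc1a1.

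**Figure D2:**
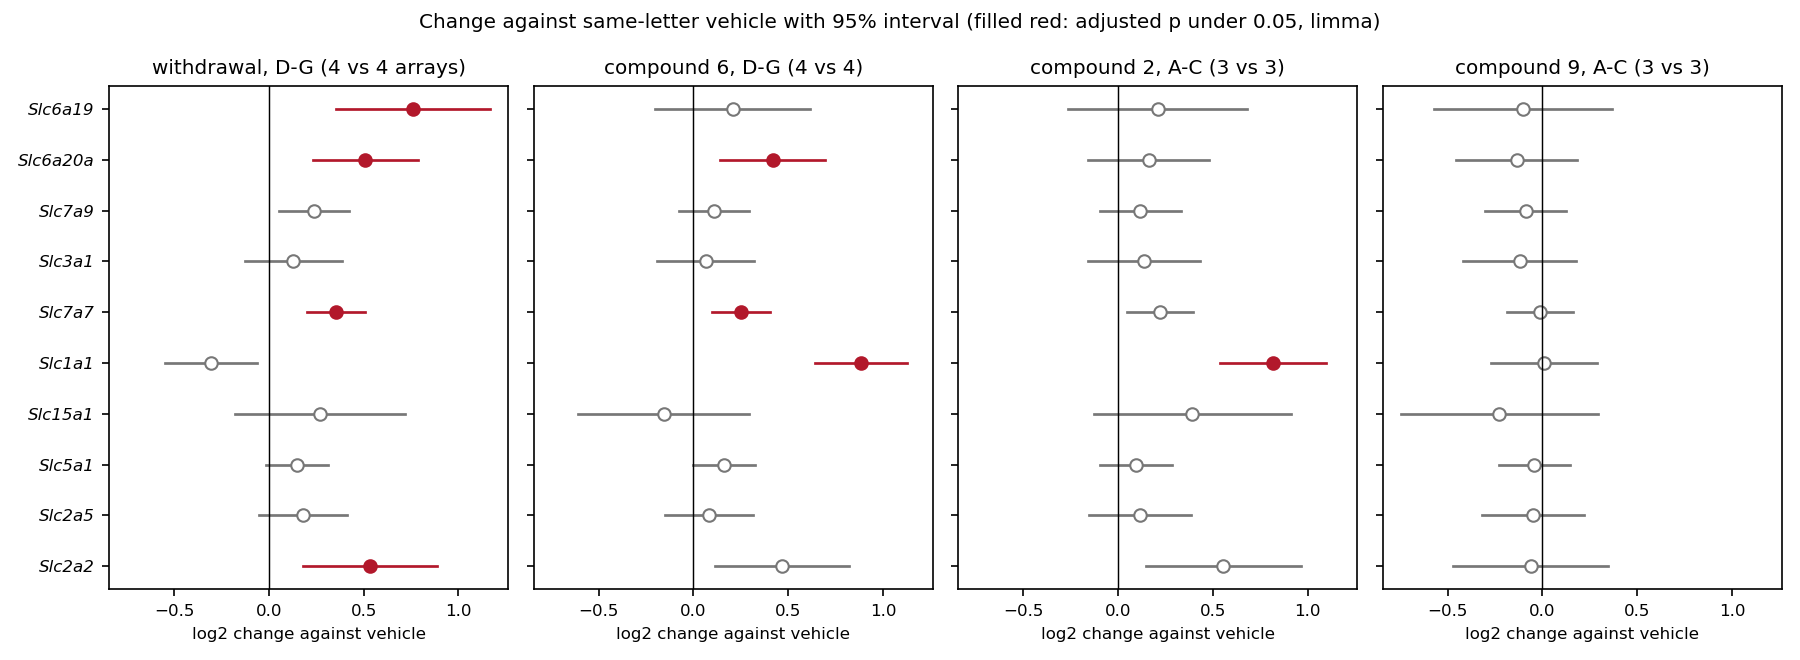
Log2 change against vehicle arrays with the same letters (x axis) for the 10 members (rows) in 4 comparisons, with 95% intervals and filled red points where limma's adjusted p was under 0.05. Red points number 4 for withdrawal, 3 for compound 6, 1 for compound 2 and 0 for compound 9.

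Slc6a19, the sodium-driven B0AT1 carrier of neutral amino acids in the brush border, was at 7.76, 7.83, 7.73 and 7.83 in withdrawn samples D to G, against 6.95, 6.73, 7.49 and 6.93 in vehicles D to G. Each withdrawn array lay above each vehicle array, and vehicle F was the highest of the vehicles. Slc6a19 rose by 0.76 ± 0.19 (SE; limma, adjusted p = 0.0100), a 1.69-fold difference and higher in 4 of 4 letters. Without vehicle F the change was 0.91 (adjusted p = 0.00116) and without every array of letter F 0.93 (adjusted p = 0.0031). With compound 6 it was at 7.26, 7.09, 7.23 and 7.35, so that vehicle F lay above all 4 and vehicles D, E and G below them. The change of 0.21 ± 0.19 did not pass (limma, adjusted p = 0.482). It was at 8.05, 8.35 and 7.44 with compound 2 and at 7.72, 8.10 and 7.09 with compound 9, against 7.84, 7.78 and 7.59 in vehicles A to C. Neither set of values was apart from vehicle, with changes of 0.21 ± 0.22 and -0.10 ± 0.22, and array C was the lowest in all 3 groups. The Slc6a19 reference signal was well above background on 12 of 21 arrays.

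Slc6a20a, the SIT1 carrier of proline and related imino acids, was at 4.84, 4.80, 5.06 and 4.89 in withdrawn samples and at 4.72, 4.78, 5.00 and 4.74 with compound 6, against 4.16, 4.16, 4.81 and 4.44 in vehicles D to G. Letter F was the highest array in each of these groups, and the only overlap with vehicle came from vehicle F. The gene rose by 0.51 ± 0.13 after withdrawal (limma, adjusted p = 0.0107) and by 0.42 ± 0.13 with compound 6 (adjusted p = 0.0257), in 4 of 4 letters each. Without every array of letter F the changes were 0.59 (adjusted p = 0.00084) and 0.49 (adjusted p = 0.00369). The withdrawal call was lost without vehicle E, at 0.43, and the compound 6 call without compound 6 F, at 0.36, and without vehicle D or vehicle E, at 0.34 each. Fitted on the arrays of the comparison alone, neither change passed (limma, adjusted p = 0.0568 and 0.0919), and in the sample channel alone compound 6 did not pass either, at 0.65 (adjusted p = 0.0873). Slc6a20a was at 5.13, 5.21 and 5.01 with compound 2 and at 4.83, 5.05 and 4.57 with compound 9, against 4.84, 5.16 and 4.86 in vehicles A to C. These 3 groups overlapped, and the changes of 0.16 ± 0.15 and -0.13 ± 0.15 did not pass.

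Slc7a9 and Slc3a1 are the light and heavy chains of the b0,+ exchanger, which brings cystine and cationic amino acids across the brush border and is known from cystinuria. Slc7a9 lay at 6.05 to 6.17 in withdrawn samples, against 5.72 to 6.00 in vehicles D to G. The groups did not overlap, and the difference of 0.24 ± 0.09 missed the threshold (limma, adjusted p = 0.0640) but passed with the letter as a block (adjusted p = 0.0251). Without vehicle F it was 0.27 (adjusted p = 0.0310), and without every array of letter F 0.26 (adjusted p = 0.0664). Its heavy chain Slc3a1 lay at 6.25 to 6.49 in withdrawn samples, against 6.08 to 6.52 in vehicles D to G, a difference of 0.13 ± 0.12 that did not pass. With compound 6 Slc7a9 changed by 0.11 ± 0.09 and Slc3a1 by 0.06 ± 0.12, with compound 2 by 0.12 ± 0.10 and 0.14 ± 0.14, and with compound 9 by -0.09 ± 0.10 and -0.12 ± 0.14. None of these 6 changes passed, and every one had overlapping groups. With Agilent's own log ratios and in the series matrix Slc7a9 passed with compound 6, at 0.28 in both (limma, adjusted p = 0.0447 and 0.0407).

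Slc7a7, the y+LAT1 light chain that exports cationic amino acids through the basolateral membrane, was at 3.42, 3.49, 3.21 and 3.45 in withdrawn samples and at 3.34, 3.36, 3.17 and 3.29 with compound 6, against 3.02, 2.95, 3.16 and 3.03 in vehicles D to G. Both treated groups lay wholly above vehicle, with letter F the lowest treated array and the highest vehicle array. The gene rose by 0.35 ± 0.07 after withdrawal (limma, adjusted p = 0.00268) and by 0.25 ± 0.07 with compound 6 (adjusted p = 0.0165). Without every array of letter F these were 0.45 (adjusted p = 5.88e-05) and 0.33 (adjusted p = 0.00119), and the compound 6 change did not pass without vehicle E, at 0.22, or on the arrays of the comparison alone (adjusted p = 0.0590). Slc7a7 was at 3.23, 3.35 and 3.33 with compound 2 and at 2.98, 3.14 and 3.10 with compound 9, against 3.01, 3.18 and 3.07 in vehicles A to C. All 3 compound 2 arrays lay above the vehicles, but the change of 0.22 ± 0.08 did not pass (limma, adjusted p = 0.146, and 0.0605 with the letter as a block). The heavy chain that pairs with Slc7a7, Slc3a2, rose by 0.46 ± 0.14 with compound 6 (limma, adjusted p = 0.0213) and was at 0.29 ± 0.14 after withdrawal, which did not pass.

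Slc1a1, the EAAT3 carrier of glutamate and aspartate, which also takes up cysteine, was at 3.44, 3.16, 3.26 and 3.13 with compound 6 and at 2.10, 2.14, 2.06 and 1.92 in withdrawn samples, against 2.27, 2.45, 2.18 and 2.55 in vehicles D to G. The 3 groups did not overlap: compound 6 was above vehicle and withdrawn samples were below it. Compound 6 raised Slc1a1 by 0.89 ± 0.12 (limma, adjusted p = 3.83e-05), a 1.85-fold difference seen in 4 of 4 letters. After withdrawal it was lower in 4 of 4 letters, at -0.31 ± 0.12, which missed the threshold (limma, adjusted p = 0.0670) and passed with the letter as a block (adjusted p = 0.0369). Without vehicle F the changes were 0.83 (adjusted p = 5.23e-05) with compound 6 and -0.37 (adjusted p = 0.0254) after withdrawal, and without every array of letter F they were 0.82 (adjusted p = 0.000246) and -0.37 (adjusted p = 0.0483).

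In letters A to C, Slc1a1 was at 1.85, 1.36 and 1.61 with compound 2 and at 0.90, 0.81 and 0.68 with compound 9, against 0.74, 0.57 and 1.04 in vehicles. Every compound 2 array lay above every vehicle array, and compound 9 lay among the vehicles. Compound 2 raised it by 0.82 ± 0.13 (limma, adjusted p = 0.00146), a 1.76-fold difference. With compound 9 the change was 0.01 ± 0.13, with a 95% interval of -0.27 to 0.29.

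The reference signal of Slc1a1 was well above background on 0 of 21 arrays, so its ratios rest on a reference at background. Its median sample intensity was 124, against 32.6 for the reference, and the offset of 50 added at background correction shrinks changes of such dim probes. By letter set the medians were 154 (reference 34.5) in letters D to G and only 44.7 (reference 25.1) in letters A to C. The Slc1a1 values of compounds 2 and 9 come from this dimmer set. In the sample channel alone Slc1a1 was at 8.80, 8.69, 8.78 and 8.62 (log2 intensity) with compound 6 and at 7.61, 7.59, 7.57 and 7.42 in withdrawn samples, against 7.68, 7.78, 7.68 and 7.70 in vehicles D to G. Compound 6 again lay wholly above vehicle and withdrawn samples wholly below it, with changes of 1.01 ± 0.07 (limma, adjusted p = 6.53e-08) and -0.16 ± 0.07 (adjusted p = 0.117). The same channel gave 0.52 ± 0.08 for compound 2 (limma, adjusted p = 0.00091), and the series matrix 1.13, which did not pass (adjusted p = 0.0507). With Agilent's own log ratios the compound 6 change was 0.65 (adjusted p = 0.0769), and in the deposited series matrix it was 0.55 (adjusted p = 0.156), neither past the threshold. The 10 spots of Slc1a1 had an SD of 0.09 to 0.17 within an array.

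**Figure D3:**
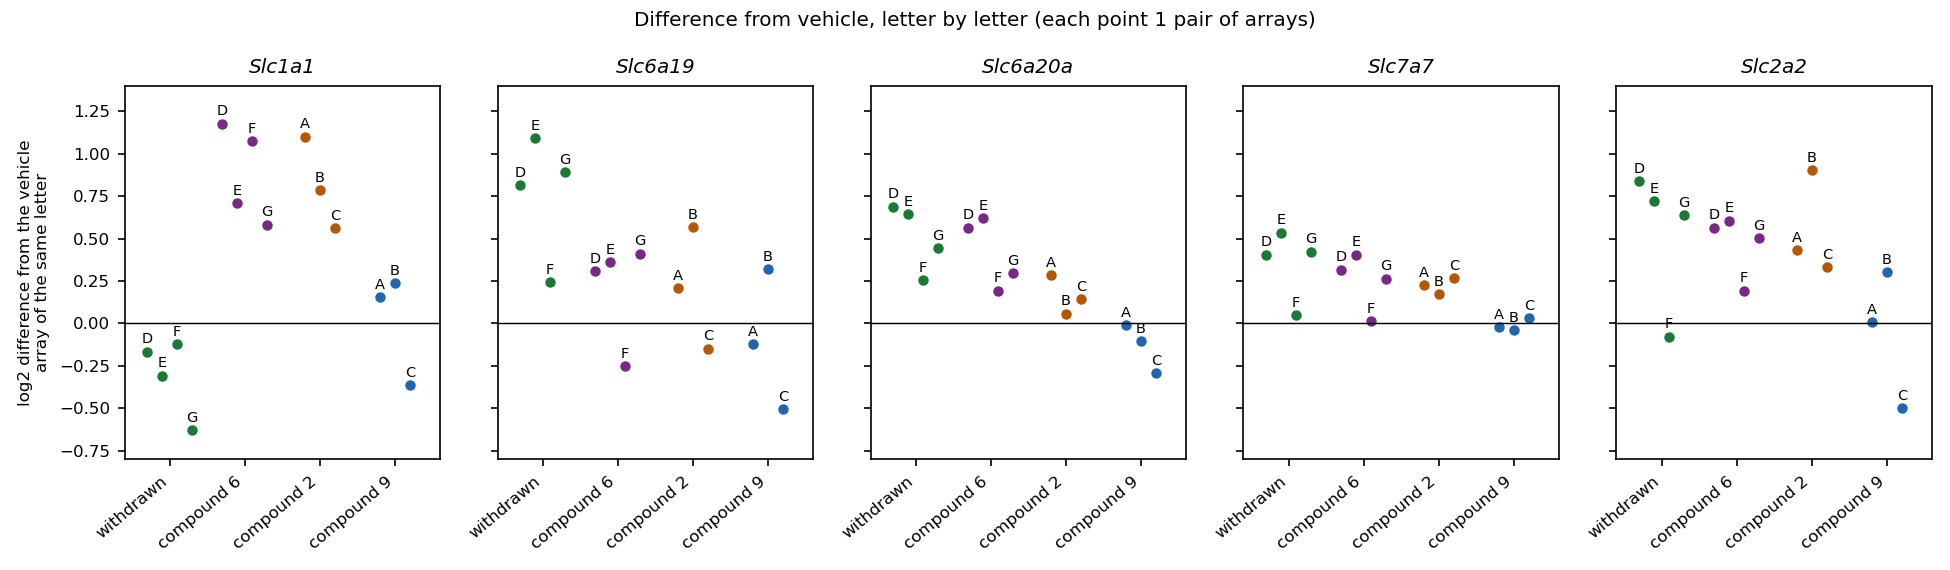
Log2 difference from the vehicle array of the same letter (y axis) for 5 transporter genes, each point 1 pair of arrays marked with its letter. Slc1a1 is above 0 in all 4 letters with compound 6 and all 3 with compound 2 and below 0 in all 4 withdrawn letters, and letter F gives the smallest withdrawal difference of Slc6a19, Slc6a20a, Slc7a7 and Slc2a2.

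Slc15a1, the PEPT1 carrier that takes up di- and tripeptides with protons, lay at 2.98 to 3.25 in withdrawn samples and at 2.56 to 3.03 with compound 6, against 2.30 to 3.27 in vehicles D to G. The vehicles spanned both groups, and neither the withdrawal change of 0.27 ± 0.21 nor the compound 6 change of -0.16 ± 0.21 passed. With the slide as a block the withdrawal change was 0.48 and passed (limma, adjusted p = 0.0317). It lay at 4.23 to 4.86 with compound 2 and at 3.37 to 4.22 with compound 9, against 3.83 to 4.30 in vehicles A to C. These changes of 0.39 ± 0.25 and -0.23 ± 0.25 did not pass. Like Slc1a1, Slc15a1 had a reference signal well above background on 0 of 21 arrays.

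Slc2a2, the facilitative GLUT2 carrier through which glucose, galactose and fructose leave the enterocyte, was at 8.31, 8.26, 8.16 and 8.38 in withdrawn samples and at 8.03, 8.15, 8.43 and 8.24 with compound 6, against 7.47, 7.54, 8.24 and 7.74 in vehicles D to G. Vehicle F was within both treated groups, and vehicles D, E and G lay below them. The gene rose by 0.53 ± 0.17 after withdrawal (limma, adjusted p = 0.0317), in 3 of 4 letters. That call was lost without withdrawn array D (0.52), E (0.54) or G (0.50) and without vehicle D (0.44), E (0.46) or G (0.53), while without every array of letter F the change was 0.73 (adjusted p = 0.00245). It was also lost on the arrays of the comparison alone (limma, adjusted p = 0.0617), and the change was 0.18 with Agilent's own log ratios and in the series matrix alike, past the threshold in neither (adjusted p = 0.595 in the series matrix). With compound 6 it was 0.47 ± 0.17 (limma, adjusted p = 0.0503, and 0.0103 with the letter as a block), and 0.63 without vehicle F (adjusted p = 0.00397).

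In letters A to C, Slc2a2 was at 9.00, 9.19 and 8.70 with compound 2 and at 8.58, 8.59 and 7.87 with compound 9, against 8.57, 8.29 and 8.37 in vehicles. Compound 2 lay wholly above vehicle, and compound 9 overlapped it. The compound 2 change of 0.56 ± 0.19 did not pass (limma, adjusted p = 0.113) without the letter block and passed with it (adjusted p = 0.0198). With compound 9 it was -0.06 ± 0.19.

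The sodium-driven SGLT1 carrier of glucose and galactose, Slc5a1, and the brush-border fructose carrier GLUT5, Slc2a5, moved little on the ratio scale. Slc5a1 lay at 4.27 to 4.41 in withdrawn samples and at 4.20 to 4.56 with compound 6, against 4.11 to 4.30 in vehicles D to G, with differences of 0.15 ± 0.08 and 0.16 ± 0.08. Slc2a5 lay at 6.82 to 7.13 and at 6.73 to 7.11, against 6.64 to 6.90, with differences of 0.18 ± 0.11 and 0.08 ± 0.11. None of the 4 passed, and all had overlapping groups. With the sample channel alone, Slc5a1 after withdrawal was at 0.89 ± 0.16 (limma, adjusted p = 0.00134), larger than its ratio change, and with the slide as a block the ratio passed at 0.23 (adjusted p = 0.0434). In the sample channel Slc2a5 was at 0.82 ± 0.33 after withdrawal (limma, adjusted p = 0.0878) and -0.28 ± 0.33 with compound 6 (adjusted p = 0.602), neither past the threshold. Between compound 6 and withdrawal that channel gave -1.10 ± 0.33 for Slc2a5, which passed (limma, adjusted p = 0.0295). Compound 2 changed Slc5a1 by 0.09 ± 0.09 and Slc2a5 by 0.12 ± 0.13, and compound 9 by -0.04 ± 0.09 and -0.05 ± 0.13, none past the threshold.

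The 3 analogues were compared with each other at the same dose and time, in 3 pairs with 10 members each. Between compounds 9 and 2, which share letters, all 10 members had lower estimates with compound 9 (median -0.28, all genes 0.00). Of these 1 member passed, Slc1a1, at -0.81 ± 0.13 (limma, adjusted p = 0.0017) and lower in 3 of 3 letters, beside 4.80% of all genes called. With Agilent's own log ratios that difference was -1.01 and did not pass (adjusted p = 0.0717). Blocking letters, 4 members passed as lower, beside 15.9% of all genes. With the block they were Slc1a1, Slc15a1 at -0.62 ± 0.15 (limma, adjusted p = 0.00855), Slc2a2 at -0.62 ± 0.15 (0.0113) and Slc6a20a at -0.30 ± 0.09 (0.0324). Values of 5 members did not overlap between the 2 compounds, beside 25.2% of all genes. For Slc6a19 the difference was -0.31 with a 95% interval of -0.78 to 0.16, and for Slc5a1 -0.14 with -0.32 to 0.05, so that no difference was shown for either.

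Compound 6 was set against the other compounds through the vehicles of each letter set, since no letter or scan is shared. Against compound 9 it gave a higher Slc1a1 by 0.88 ± 0.18 (limma, adjusted p = 0.00775), 1 of 10 members, beside 6.50% of all genes called. The call was lost with Agilent's own log ratios, at 0.54 (adjusted p = 0.471), and in the series matrix, at 0.63 (adjusted p = 0.415). Slc6a20a also passed with letters blocked, at 0.55 (adjusted p = 0.00425), beside 21.8% of all genes. Against compound 2, 0 of 10 members passed in limma, 0 at an unadjusted p under 0.05 and 0 with the letter as a block, beside 0.566% of all genes called without the block and 9.22% with it. The difference for Slc1a1 was 0.07 with a 95% interval of -0.30 to 0.44, that for Slc7a7 0.03 with -0.20 to 0.26, and the widest interval, for Slc15a1, ran from -1.24 to 0.14. Equal action is not shown by these intervals.

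Against withdrawal, on the same letters, compound 6 gave 1 of 10 members past the threshold, beside 15.0% of all genes called. This was Slc1a1, higher by 1.19 ± 0.12 (limma, adjusted p = 2.95e-06), a 2.29-fold difference seen in 4 of 4 letters, and 1.19 without every array of letter F (adjusted p = 1.72e-05). In the series matrix it was 0.77 and did not pass (adjusted p = 0.0643). Slc6a19 was lower with compound 6 than after withdrawal in 4 of 4 letters, at -0.55 ± 0.19 (limma, adjusted p = 0.0621, and 0.00389 with the letter as a block), and the groups did not overlap. Slc15a1 was lower in 4 of 4 letters, at -0.43 ± 0.21 (limma, adjusted p = 0.201, and 0.0163 with the block). With the block 3 members passed, beside 34.1% of all genes, and groups did not overlap for 2 members, beside 20.9% of all genes.

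Levels of Slc1a1 and Slc15a1 also differed between letter sets. In vehicles of letters D to G Slc1a1 averaged 2.36 ± 0.17 (SD, n = 4), and in vehicles of letters A to C 0.79 ± 0.24 (SD, n = 3). Slc15a1 averaged 2.87 ± 0.47 in vehicles of letters D to G and 4.14 ± 0.26 in vehicles of letters A to C, the opposite order. Set and scan cannot be told apart here, and within sets the order of Slc1a1 was compound 6, vehicle, withdrawn in letters D to G from high to low, the step from vehicle to withdrawn missing the threshold, and compound 2 above compound 9 and vehicle, which overlapped, in letters A to C.

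Of 49 other genes of absorption, 47 were tested (Rsc1a1 and Slc6a14 were not). After withdrawal 16 were higher, 5 lower and 26 did not pass, and with compound 6 13 were higher, 3 lower and 31 did not pass. These are to be read beside the 20.7% and 24.8% of all genes called. Without every array of letter F 21 were higher and 4 lower after withdrawal, with 20 of the 21 calls kept and beside 31.9% of all genes called, and 16 were higher and 5 lower with compound 6, with all 16 calls kept and beside 30.4%. With compound 2 these counts were 2, 1 and 44, beside 5.32% of all genes. They became 11 higher and 4 lower with the letter as a block, beside 17.4% of all genes, and 9 higher and 1 lower without every array of letter F, beside 10.7%. Leaving out letter F removed no array of compound 2 or its vehicles, so it changed the variance estimated over all arrays and not the estimates. With compound 9 0 passed in limma, 0 at an unadjusted p under 0.05 and 0 with the letter as a block. The median change over the 47 was 0.17 after withdrawal, 0.10 with compound 6, 0.19 with compound 2 and -0.02 with compound 9.

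Brush-border enzymes that release the members' substrates were among the genes that rose. Of 8 tested, 4 rose after withdrawal: lactase, Lct, by 0.63 ± 0.17 (limma, adjusted p = 0.0122), sucrase-isomaltase, Sis, by 0.46 ± 0.11, maltase-glucoamylase, Mgam, by 0.45 ± 0.08 and glutamyl aminopeptidase, Enpep, by 0.55 ± 0.15. With compound 6 3 of 8 rose, Lct by 0.97 ± 0.17 (limma, adjusted p = 0.000431), Enpep by 1.03 ± 0.15 and Mgam by 0.38 ± 0.08, while Sis was at 0.11 and did not pass. Sis was lower with compound 6 than after withdrawal, at -0.36 ± 0.11 (limma, adjusted p = 0.0322), and Enpep higher, at 0.48 ± 0.15 (adjusted p = 0.0429), a call lost without letter F (0.43, adjusted p = 0.133). Of 6 partners and scaffolds, 3 rose after withdrawal, among them the PDZ scaffold Pdzk1 by 0.87 ± 0.21 (limma, adjusted p = 0.0072) and NHERF1, Slc9a3r1, by 0.41 ± 0.12. Both were lower with compound 6 than after withdrawal, at -0.85 ± 0.21 (limma, adjusted p = 0.0100) and -0.38 ± 0.12 (adjusted p = 0.0443). The Slc6a19 partner Tmem27 did not pass after withdrawal or with compound 6. Counts of enzymes and partners are to be read beside the 20.7% of all genes called after withdrawal and the 24.8% with compound 6.

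Counts of other amino acid transporters also stand beside 20.7% of all genes called after withdrawal and 24.8% with compound 6. Of 11 other amino acid transporters tested, 3 rose and 4 fell after withdrawal. Those that rose were Slc16a10 (TAT1, aromatic amino acids) by 0.56 ± 0.14 (limma, adjusted p = 0.00978), Slc7a8 (LAT2) by 0.53 ± 0.16 and Slc43a2 (LAT4) by 0.49 ± 0.14. Those that fell were the cationic amino acid carrier Slc7a1 at -0.97 ± 0.19 (limma, adjusted p = 0.00217), the glutamine carrier Slc1a5 at -0.81 ± 0.17, Slc7a6 at -0.39 ± 0.11 and Slc7a5 at -0.19 ± 0.07, the last not passing without letter F (adjusted p = 0.0922). With compound 6 5 rose and 0 fell: Slc16a10 by 1.08 ± 0.14 (limma, adjusted p = 4.46e-05), the cystine-glutamate exchanger Slc7a11 by 1.08 ± 0.19, Slc7a8 by 0.94 ± 0.16, the taurine carrier Slc6a6 by 0.39 ± 0.12 and the proton-coupled carrier Slc36a1 by 0.38 ± 0.08. Without letter F Slc7a1 also passed as lower with compound 6, at -0.38 (limma, adjusted p = 0.0311). Set against withdrawal directly, compound 6 gave 5 of the 11 higher and 1 lower, beside 15.0% of all genes called. Among those higher were Slc1a5 by 0.75 ± 0.17 (limma, adjusted p = 0.0055), Slc7a1 by 0.74 ± 0.19 and Slc7a11 by 0.91 ± 0.19. Over all 47 other absorption genes tested, 6 were higher and 7 lower with compound 6 than after withdrawal.

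Of 9 other sugar transporters, 4 rose and 1 fell after withdrawal, with Slc5a4a, of the sodium-glucose cotransporter family, at 1.03 ± 0.24 (limma, adjusted p = 0.00671). The hexose carrier Slc2a7 rose by 0.69 ± 0.21 after withdrawal (limma, adjusted p = 0.0232) and fell by 1.02 ± 0.21 with compound 6 (adjusted p = 0.00154), a direct difference of -1.71 ± 0.21 between compound 6 and withdrawal (adjusted p = 2.43e-05). Slc2a9, a urate and hexose carrier, fell by 0.71 ± 0.13 with compound 6 (limma, adjusted p = 0.000857). In all, compound 6 raised 2 of the 9 and lowered 2, Slc2a7 and Slc2a9. The shares of all genes called were 20.7% after withdrawal and 24.8% with compound 6. Of 11 regulators, Txnip, an arrestin that limits glucose uptake, fell by 1.42 ± 0.10 with compound 6 (limma, adjusted p = 3.49e-08) and fell by 0.87 ± 0.11 with compound 2 (adjusted p = 0.000172). Txnip was at 0.08 ± 0.10 after withdrawal, which did not pass. Gata6, a transcription factor of intestinal epithelium, rose by 0.31 ± 0.07 after withdrawal, by 0.51 ± 0.07 with compound 6 and by 0.58 ± 0.08 with compound 2. Hnf4a and Cdx2, regulators of enterocyte genes, did not pass in any comparison with vehicle, except that Cdx2 passed as lower with compound 6 once letters were blocked, at -0.25 (limma, adjusted p = 0.0105).

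**Figure D4:**
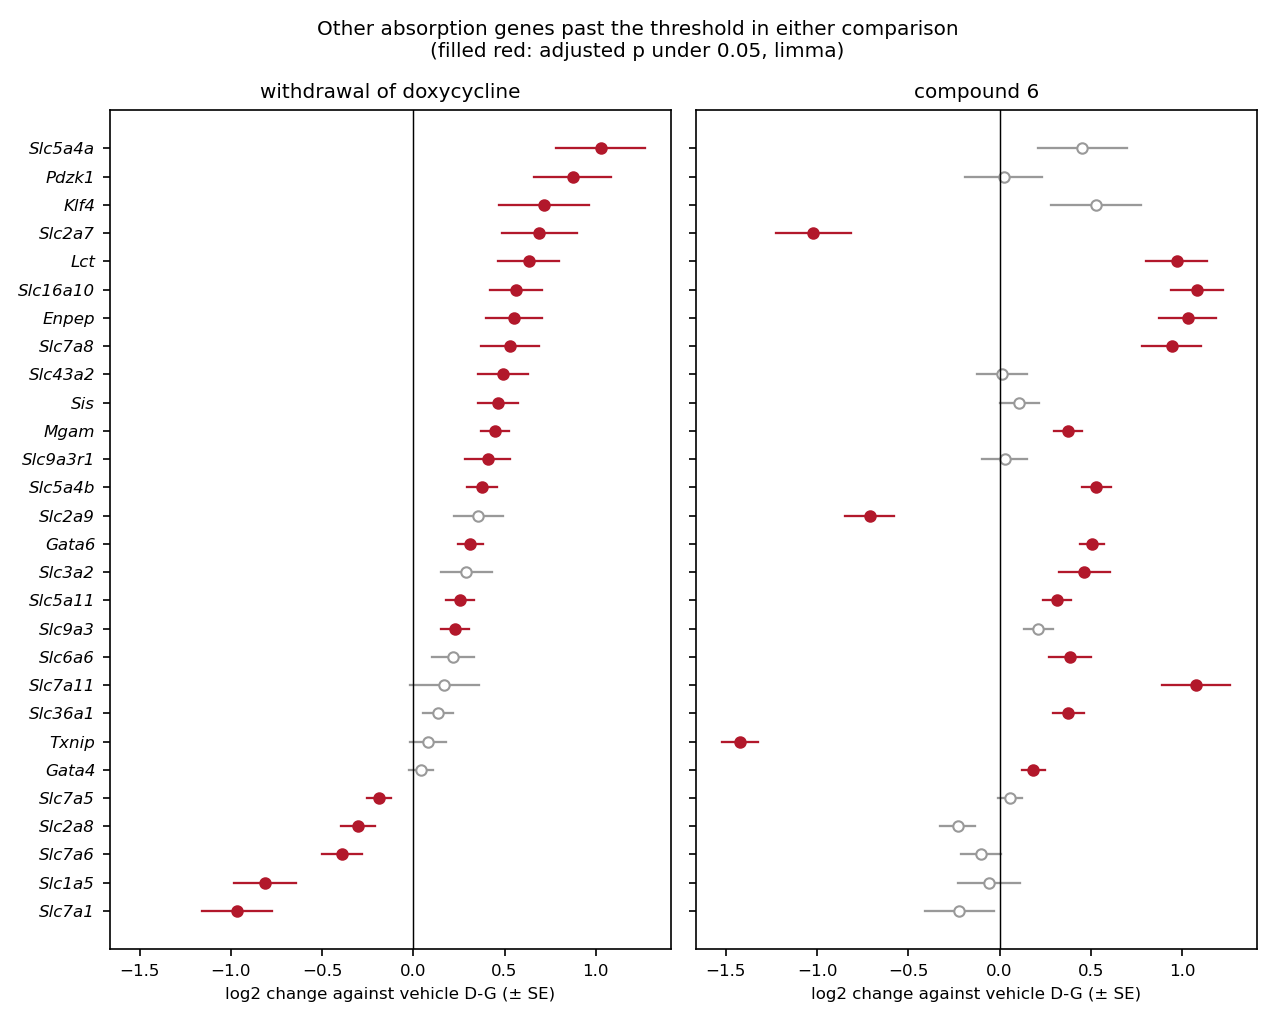
Log2 change against vehicles D to G (x axis, ± SE) of the 28 other absorption genes (rows) past the threshold after withdrawal (left) or with compound 6 (right), filled red where limma's adjusted p was under 0.05. Slc2a7 is red on opposite sides of 0, and Slc7a1 and Slc1a5 are red and below 0 in the left panel and open in the right.

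Cell type markers were also called in these comparisons. Their counts are to be read beside the shares of all genes called. These were 20.7% after withdrawal, 24.8% with compound 6 and 5.32% with compound 2. After withdrawal 4 of 4 stem cell markers and 3 of 4 proliferation markers fell, and 4 of 10 enterocyte markers rose, with Krt20 at 0.70 ± 0.12. The epithelial keratins Krt8 and Krt18 (2 of 7 epithelial markers) were lower after withdrawal, at -0.29 ± 0.09 and -0.38 ± 0.09. The goblet cell marker Muc2 (1 of 4) and the leukocyte marker Itgam (1 of 4) were higher, at 0.27 ± 0.08 and 0.29 ± 0.08. Sis and Lct are on both the enterocyte list and the list of other absorption genes. With compound 6 3 of 4 stem cell markers and 1 of 4 proliferation markers fell. Those that rose were 3 of 10 enterocyte markers, near the 24.8% of all genes called, 3 of 4 fibroblast markers and 2 of 4 leukocyte markers. Also with compound 6, the goblet cell markers Clca3 and Muc2 (2 of 4) rose by 0.91 ± 0.16 and 0.32 ± 0.08, the enteroendocrine marker Neurod1 (1 of 3) by 0.65 ± 0.11 and the endothelial marker Pecam1 by 0.36 ± 0.10, while the endothelial marker Kdr was lower, at -0.21 ± 0.08, and the epithelial marker Epcam too, at -0.34 ± 0.10, and Krt18 was higher, at 0.29 ± 0.09, a call lost without letter F. With compound 2, 1 of 4 stem cell markers passed, Smoc2, higher by 1.74 ± 0.47, and the median change of that list was -0.003. Ascl2 was at -0.97 ± 0.36, which did not pass (limma, adjusted p = 0.142) but passed as lower with the letter as a block (adjusted p = 0.00884). Also with compound 2, 1 of 4 fibroblast markers rose, Col1a1 by 0.44 ± 0.08 (list median 0.02). Of 7 epithelial markers 2 rose, Krt18 and Vil1, by 0.36 ± 0.10 and 0.35 ± 0.10 (list median 0.09). Without every array of letter F 4 of 4 stem cell and 4 of 4 proliferation markers fell after withdrawal and with compound 6, and with compound 6 2 fibroblast markers and 1 leukocyte marker rose. These counts are to be read beside the shares of all genes given above without letter F. The median level of the fibroblast markers ranged from -6.28 to -5.92 with compound 6 and from -6.36 to -6.26 after withdrawal, against -6.44 to -6.21 in vehicles D to G, and that of the leukocyte markers from -2.37 to -2.26 and from -2.46 to -2.30, against -2.63 to -2.42. The median level of the enterocyte markers ranged from 6.53 to 6.85 with compound 6 and from 6.32 to 6.72 after withdrawal, against 6.49 to 6.78 in vehicles D to G. The part of these cell types in the transporter changes was not tested.

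Across the 21 arrays, after the mean of each letter set was subtracted, the members varied together to differing degrees. Pearson correlations of the 45 member pairs ran from -0.19 to 0.83 with a median of 0.60, and 42 were above 0, as a description of arrays that share treatments and letters. The highest was between Slc6a20a and Slc2a2 (0.83), and the lowest, between Slc1a1 and Slc6a19 (-0.19). The genes most like Slc6a19 over these arrays were Adap1 (0.93), Picalm (0.92) and Slc5a4a (0.91), and those most like Slc6a20a were Parp14 (0.97), Plekhf1 (0.96) and Arhgef5 (0.95). Most like Slc1a1 were Scd3, Hps3 and Zfp64 (0.93 each), most like Slc2a2 were Igsf5 (0.93), Slc26a3 (0.92) and Gramd3 (0.92), and most like Slc7a7 were Golga1 (0.92), Hdlbp (0.91) and Mpp1 (0.90). Slc7a9 was nearest to Naprt1 (0.85), Slc3a1 to Tff1 (0.88), Slc15a1 to Pla2g12b (0.88), Slc5a1 to Anxa13 (0.88) and Slc2a5 to Tmem127 (0.84).

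The arrays lay on 5 slides, and several slides held both groups of a comparison. Within slide 4 the 3 withdrawn arrays exceeded its 1 vehicle array by 1.04 for Slc6a19, 0.74 for Slc6a20a, 0.70 for Slc2a2 and 0.42 for Slc7a7, and within slide 3 the 1 withdrawn array exceeded its 2 vehicles by 0.61, 0.41, 0.53 and 0.36. Slc1a1 was 1.22, 0.70 and 0.71 higher with compound 6 than vehicle within slides 3, 4 and 5, and 0.94 and 0.56 higher with compound 2 than vehicle within slides 1 and 2. It was -0.35 and -0.30 after withdrawal relative to vehicle within slides 4 and 3. Each of these differences had the direction of its comparison as a whole.

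The probes lay, in build mm9 coordinates of the array annotation, at chr13:73818718-73818777 for Slc6a19, chr9:123546031-123546090 for Slc6a20a, chr14:54989166-54989225 for Slc7a7, chr19:28988332-28988391 for Slc1a1 and chr3:28627016-28627075 for Slc2a2. Exon and untranslated-region positions of the probes were not looked up in an annotation of that build.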

How the data were processed

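RNA of 21 organoid samples was hybridised against 1 common reference, without dye swaps, per the labels. The deposited scanner files give spot intensity in both channels and a log10 ratio made by Agilent Feature Extraction 10.7.3.1, with coordinates of build mm9, per the file headers. In the deposited series matrix the values are log2 ratios, sample over reference, with column medians in the range of -0.01 to 0.09. Its correlation with the turned log10 ratios was 0.924 or more, and how it was made is not stated in the labels or headers used.

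Control spots (3671 of 62976 per array) and 157 non-uniform spots over all arrays were left out, and 0 spots were saturated. Of spots, 42.6% to 51.9% were well above background in the sample channel. Intensities, read with the R package data.table (1.17.8), were background-corrected (normexp, offset 50) with limma 3.58.1 under R 4.3.3, normalised by loess within each array, and averaged over spots of a probe. A probe was kept where its Cy3 signal was well above background on 3 or more arrays (29631 probes), 1 probe (the brightest) per symbol, which left 21372 genes. The model had terms for the 5 groups and the letter set over all 21 arrays. Tests were two-sided, adjusted over all genes by Benjamini-Hochberg at 0.05. The number of arrays limits the precision. The fit was tested on simulated data.

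A check of pairing used deviations from group means: the 21 same-letter pairs of arrays correlated at 0.208 to 0.749 (median 0.528), so the letter was also fitted as a block. Alternatives changed the background correction, the source of the ratios, the probe filter, the probe rule, the blocks and the arrays used; leaving out letter F was chosen after seeing the data.

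The 10 members and the lists of other genes and markers were chosen with earlier results of these data known. All members are named, other absorption genes only where past the threshold in a comparison with vehicle or where singled out after their values were seen (Tmem27, Hnf4a, Cdx2); a few others that enter the counts are not reported here. For each member up to 3 genes of highest correlation are named. Promoter sequences are from RefSeq. Python 3.11.15 with matplotlib 3.10.9 drew the figures.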

Additional observations from a re-analysis of the deposited data

Results flagged for a closer look

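All 3 results singled out concern Slc1a1, and in each the difference between 2 treatments was itself tested. Slc1a1 was lower with compound 9 than with compound 2, at -0.81 (limma, adjusted p = 0.0017, lower in 3 of 3 letters). This call was lost with Agilent's log ratios (-1.01, adjusted p = 0.0717) and without the term for the letter set (-0.81, adjusted p = 0.541). It was higher with compound 6 than with compound 9, at 0.88 (limma, adjusted p = 0.00775), through the vehicles of 2 letter sets, a call lost with Agilent's log ratios (0.54, adjusted p = 0.471) and in the series matrix (0.63, adjusted p = 0.415). It was higher with compound 6 than after withdrawal of doxycycline, at 1.19 (limma, adjusted p = 2.95e-06, higher in 4 of 4 letters). That call was lost in the series matrix (0.77, adjusted p = 0.0643) and without the term for the letter set (1.19, adjusted p = 0.0598). The comparisons with compound 9 draw on letters A to C, where the median sample intensity of Slc1a1 was 44.7, against 25.1 for the reference. Of 30 groups of 4 arrays examined for 1 array far from the others, 0 met the criterion.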

How the results depend on the processing

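Of 1580 single-gene values under alternatives, 1488 stayed on their side of the threshold, 31 lost the call, 56 gained it and 5 reversed; 116 in all turned sign, the 5 included, the others past the threshold in neither fit. The counts below are of the 10 members, higher and lower together, and causes were not tested. After withdrawal the count was 4, with 1 without the set term, 2 with only the arrays of the comparison, and 2 (without vehicle E) to 6 (without vehicle F) when 1 array was left out. For compound 6 it was 3, with 1 for the arrays of the comparison alone, and 1 (without vehicle E) to 4 when 1 was left out. For compound 2 it was 1, with 0 in the series matrix, 2 with the letter block, 3 without the set term and 3 without letter F (beside 10.7% of all genes called, against 5.32%). For compound 9 it was 0 under all alternatives run. For compound 9 against compound 2 it was 1, with 4 for the letter block, 2 for the slide block, 0 without the set term and 3 without letter F. Leaving out letter F removed no array of compounds 2 or 9 or of their vehicles. The compound 2 estimates of Slc7a7 (0.22) and Slc2a2 (0.56) stayed the same. Only the variance, which is estimated over all arrays, and the p-values changed, so these counts show no dependence of compounds 2 and 9 on letter F itself. For compound 6 against compound 9 it was 1, with 0 for Agilent's ratios, 2 with the letter block, 5 without the set term, 3 without letter F, and 1 to 3 (without vehicle F) when 1 was left out. For compound 6 against compound 2 it was 0, with 1 for Cy3 alone and 5 without the set term. For compound 6 against withdrawal it was 1, with 2 for Agilent's ratios, 5 for Cy3 alone, 2 in the series matrix, 3 with the letter block, 3 with the slide block, 0 without the set term and 3 with the arrays of the comparison alone.

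The reversed values were Slc5a1, compound 6 against withdrawal of doxycycline, at -0.65 with Cy3 alone; Slc15a1 in the series matrix, where several of its values are missing, at 3.19 for compound 6 against vehicle and 1.93 against withdrawal; Slc1a1, compound 2 against vehicle, at -0.084 without the set term; and Slc15a1, compound 6 against compound 9, at -1.20 without the set term. Slc1a1 and Slc15a1 have a reference signal at background, which limits their ratios, and comparisons of 3 arrays with 3 have wide intervals. The reference signals of Slc6a19 and Slc2a2 were well above background on only 12 and 17 of 21 arrays.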
